A study of Homo sapiens with 6 samples.

Results

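The genes of 7 ligands that natural killer (NK) cells read on stressed cells, ULBP1, ULBP2, ULBP3, MICA, MICB, PVR and NECTIN2, were followed in irradiated fibroblasts with and without the plant lignan sauchinone. They were picked by gene symbol, with their difference between the groups already known, and make up 7 of the 61806 genes in the deposited table. RNA was sequenced from HFF cells, a cell-bank culture of human foreskin fibroblasts labelled wild type, in 2 groups of 3 libraries. Cells of both groups, in 1 labelled batch, were irradiated with ultraviolet B (UVB; 40 mJ per cm2). The protocol then gives 48 h of culture with vehicle or with sauchinone, which was 10 µM in the UVB + sauchinone group. It also describes pretreatment experiments without saying whether these libraries belong to them, and cells without UVB were not analysed here. Both groups are 1 cultured line, so donors do not vary.

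NK cells carry the activating receptor NKG2D, which binds MICA, MICB and the ULBP proteins, distant relatives of MHC class I molecules. Healthy cells show little of these ligands, and DNA damage, infection or heat raises them. A further activating receptor, DNAM-1 (gene CD226), binds PVR (also called CD155) and NECTIN2 (also called CD112), adhesion molecules of the nectin family. The inhibitory receptor TIGIT binds PVR and NECTIN2 too, and inhibitory receptors that recognise MHC class I counter the activating signals. Shed ligands can blunt the response, so surface protein need not follow RNA.

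The starts of the 5 NKG2D ligand genes are shown first because some motifs of their upstream sequence divide them in a way that the choice of genes did not use. The bases run 5′ to 3′ on the gene's own strand, from 160 bases before the RefSeq start (GRCh38.p14) to the last base before any exon of GENCODE release 29. Capitals mark TGACG, the core of the elements bound by ATF and CREB factors, or its reverse complement CGTCA in ULBP1 and ULBP2, the GC box GGGCGG in ULBP3, and GAANNTTC, an inverted heat shock repeat, in MICA and MICB. The motif to mark was picked for each gene. GGGCGG is marked in ULBP3 alone, although it was also found upstream of ULBP1, ULBP2, MICA and MICB.
ULBP1, chr6:149963783-149963942, plus strand: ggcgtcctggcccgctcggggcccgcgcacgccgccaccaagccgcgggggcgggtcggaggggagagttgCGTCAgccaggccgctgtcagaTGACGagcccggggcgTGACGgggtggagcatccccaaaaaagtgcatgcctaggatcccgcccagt
ULBP2, chr6:149941854-149941999, plus strand: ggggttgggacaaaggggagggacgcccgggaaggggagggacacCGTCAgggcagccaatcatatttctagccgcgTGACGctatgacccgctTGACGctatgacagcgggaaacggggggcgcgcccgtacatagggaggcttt
ULBP3, chr6:150069122-150069281, minus strand: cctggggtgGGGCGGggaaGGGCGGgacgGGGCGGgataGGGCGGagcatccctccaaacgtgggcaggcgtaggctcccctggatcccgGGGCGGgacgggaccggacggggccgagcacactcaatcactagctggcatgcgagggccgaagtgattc
MICA, chr6:31403435-31403578, plus strand: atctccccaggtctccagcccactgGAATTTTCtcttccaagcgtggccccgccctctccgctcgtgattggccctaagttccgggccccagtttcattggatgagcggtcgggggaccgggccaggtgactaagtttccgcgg
MICB, chr6:31497985-31498085, plus strand: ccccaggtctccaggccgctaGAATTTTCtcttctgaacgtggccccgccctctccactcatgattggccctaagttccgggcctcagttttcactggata

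Over the 250 bases before each start, on both strands, TGACG was found 3 times in ULBP1 (positions −89, −67 and −51 from the start) and 3 times in ULBP2 (−115, −83 and −66) and in none of the other 5 genes. It was present in 21.2% of the 35116 promoters in the RefSeq table, and 1.01% held it at least 3 times. GAANNTTC began at position −135 from the start in MICA and at −139 in MICB, with the same letters GAATTTTC, and was present in 5.78% of all promoters. The printed stretches of MICA and MICB are also alike around this motif, so these matches are not independent. The box CCAAT was found in ULBP2, MICA and MICB (32.0% of all promoters), and GGGCGG in 6 of the 7 genes, all but PVR (42.6%). TGACNNNGC, the core of the antioxidant response element, was found in NECTIN2 alone of the 7 (10.9% of all promoters), where it shares bases with a GC box. The AP-1 site TGACTCA (4.20% of all promoters) and the ATF4 element TGATGNAA (3.14%) were found in none of these 7 windows. These letters describe the reference sequence, and binding was not measured.

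The 7 genes lie at 4 places in the genome (GRCh38). ULBP2 (chromosome 6, 149942014 to 149949235, plus strand) and ULBP1 (149963943 to 149973715, plus strand) are 14.7 kb apart, and ULBP3 (150061053 to 150069121, minus strand) lies 87.3 kb beyond ULBP1. MICA (chromosome 6, 31399784 to 31415315) and MICB (31494881 to 31511124), both on the plus strand, are 79.6 kb apart in the MHC. The deposited spans of MICA and MICB begin upstream of their RefSeq starts, so the printed stretches of these genes lie inside the spans. PVR (chromosome 19, 44643798 to 44666162) and NECTIN2 (44846175 to 44889223), both on the plus strand, are 180.0 kb apart. The coding sequences of MICA and MICB were 92.1% identical over their aligned bases, those of ULBP1 and ULBP2 78.1%, and those of ULBP2 and ULBP3 75.7%. The alignment allowed gaps, and the ULBP genes against PVR or NECTIN2, of another family, gave 69.3% to 75.4%. By this measure the values between these ULBP genes were therefore little or no higher than between families. ULBP2 is closest to 2 genes outside the 7, RAET1L (97.3%) and RAET1G (94.6%), and 11.9% of the 100-base windows of its transcript also occur in one of them. Reads from those stretches can be divided between these genes, so ULBP2 carries some uncertainty. The shares were 6.86% in ULBP3 and 1.15% in ULBP1 (both with RAET1K), 0.713% in PVR (with CEACAM19) and 0 in MICA, MICB and NECTIN2.

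All 7 genes were detected in every library, with 297 to 6625 counts each, and all 7 were higher with sauchinone. The total count per library was 20984851 to 23076388. UVB replicate 3 stood furthest from its group, with a chi-square per degree of freedom over genes of 19.9 against UVB replicate 2 and 9.19 against replicate 1, where the other pairs within a group gave 4.06 to 7.63. Levels are given as CPM, counts per 1000000 after TMM scaling of the library size, and the fitted log2 fold changes ± SE (UVB + sauchinone over UVB) came from edgeR. Every library with sauchinone lay above every UVB library for 7 of the 7 genes, as for 28.6% of the 15704 genes tested. All 7 passed edgeR's quasi-likelihood test as higher, as did 24.7% of all genes tested (49.6% passed in either direction), and 3 of the 7 had a fitted fold of at least 2, as did 4.54%. The genes were chosen on this comparison, so these shares and the values that follow are a description and carry no test. In bulk RNA, a change in the number of cells that carry a transcript and a change in transcript per cell cannot be told apart.

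**Figure D1:**
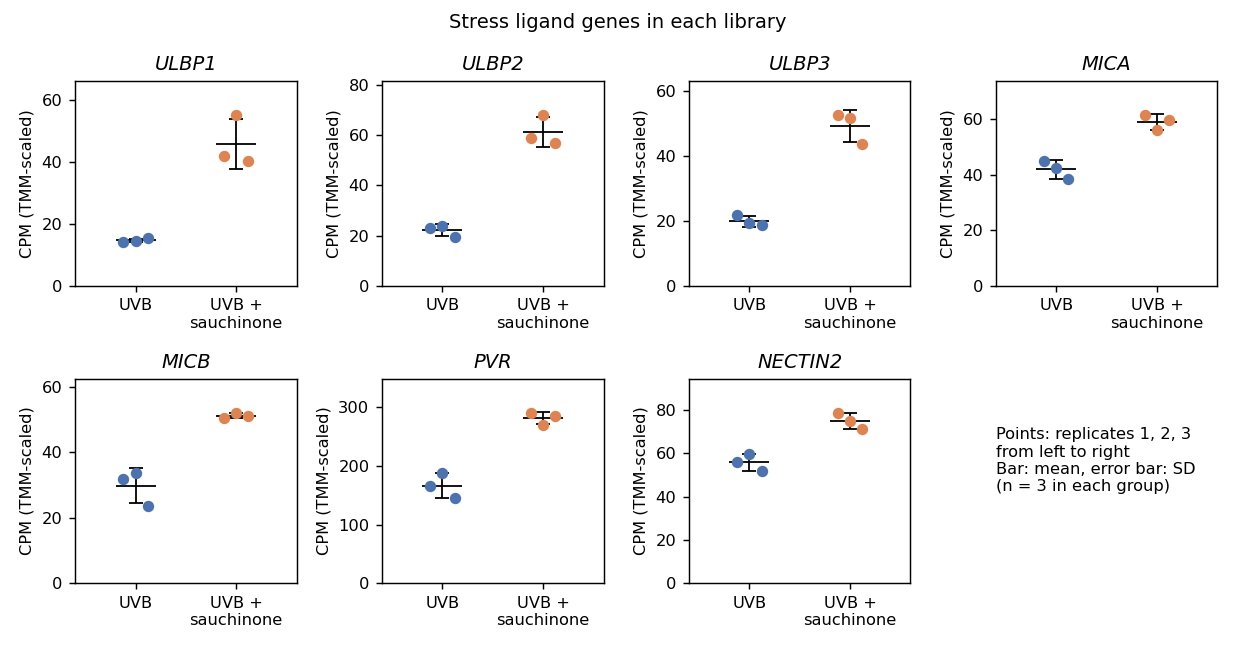
CPM of each gene (vertical axis, linear from 0) in the UVB and UVB + sauchinone libraries, with replicates 1, 2 and 3 as points from left to right, the group mean as a bar and the SD as error bar (n = 3 in each group). The groups do not overlap for any of the 7 genes, and the relative gap is widest for ULBP1 and narrowest for NECTIN2.

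The ULBP genes, whose NKG2D-binding proteins are mostly held in the membrane by a GPI anchor, differed most. ULBP1 stood at 14.3, 14.4 and 15.4 CPM in UVB replicates 1, 2 and 3 and at 41.9, 55.2 and 40.5 CPM in UVB + sauchinone replicates 1, 2 and 3. The UVB libraries were close together, and replicate 2 was the highest of the sauchinone libraries. The means were 14.7 ± 0.584 and 45.9 ± 8.12 CPM (SD, n = 3), a fitted fold of 3.12 and a log2 fold change of 1.64 ± 0.12. ULBP2 stood at 23.1, 23.9 and 19.4 CPM in the UVB libraries and at 59.0, 68.0 and 57.1 CPM with sauchinone. Its lowest UVB library was replicate 3 and its highest sauchinone library was replicate 2, with a wide gap between the groups. The log2 fold change was 1.47 ± 0.10, a fold of 2.78. ULBP3 stood at 21.8, 19.2 and 18.6 CPM in the UVB libraries and at 52.5, 51.5 and 43.6 CPM with sauchinone. Here replicate 3 was the lowest of the sauchinone libraries, still 2.00 times the highest UVB library. The log2 fold change was 1.31 ± 0.10, a fold of 2.48.

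The MIC genes, which encode transmembrane NKG2D ligands of the MHC, differed less. MICA stood at 45.1, 42.5 and 38.4 CPM in the UVB libraries and at 61.5, 56.0 and 59.7 CPM with sauchinone. The lowest sauchinone library was 1.24 times the highest UVB library, and the log2 fold change was 0.49 ± 0.089 (fold 1.41). MICB stood at 32.0, 33.8 and 23.7 CPM in the UVB libraries and at 50.3, 52.0 and 51.2 CPM with sauchinone. UVB replicate 3 was well below the other UVB libraries, whereas the sauchinone libraries were nearly equal. The log2 fold change of MICB was 0.78 ± 0.11 (fold 1.72), and 0.63 without UVB replicate 3. MICA and MICB are highly polymorphic in people, and how well reads from this culture's alleles match the reference was not tested.

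The DNAM-1 ligands were both higher with sauchinone, PVR by more than NECTIN2. PVR, an adhesion molecule that also serves as the poliovirus receptor, stood at 165, 187 and 145 CPM in the UVB libraries and at 290, 270 and 284 CPM with sauchinone. The groups were apart by 1.44 times at the nearest libraries, and the log2 fold change was 0.76 ± 0.083 (fold 1.69). NECTIN2, a cell junction protein, stood at 55.9, 59.6 and 51.9 CPM in the UVB libraries and at 78.6, 74.7 and 71.1 CPM with sauchinone. This was the narrowest gap of the 7, 1.19 times at the nearest libraries, with a log2 fold change of 0.42 ± 0.085 (fold 1.34). PVR lies across CEACAM16-AS1 on the other strand, which had 4 to 17 counts per library, and shares 3885 bases with CEACAM19 on its own strand, which had 130 to 198. These counts were small beside the 3295 to 6625 counts of PVR.

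Among all tested genes, the fold changes of ULBP1, ULBP2 and ULBP3 stood at percentiles 98.9, 98.3 and 97.6, those of MICB and PVR at 92.0 and 91.5, and those of MICA and NECTIN2 at 82.7 and 79.2. The median log2 fold change was 0.78 over the 7 genes and 0.0071 over all genes tested. UVB replicate 3 gave the lowest UVB value in 6 of the 7 genes, all but ULBP1. Without that library the log2 fold changes ran from 0.37 in NECTIN2 to 1.67 in ULBP1, and ULBP2, ULBP3, MICA and PVR gave 1.38, 1.26, 0.43 and 0.67.

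Levels of different genes were compared by FPKM, the authors' count per kb of exon and per 1000000 counts, which is not TMM-scaled. The deposited exon lengths were 1335 bases in ULBP2, 3111 in ULBP3 and 3851 in MICA. The GENCODE transcripts of these genes compared above had 1349, 988 and 1386 bases. The order of the genes and their shares of a sum therefore depend on the length used, and other lengths were not tested. PVR was the highest of the 7 in the UVB group, at 23.4 to 30.0 FPKM, above ULBP2 (14.3 to 17.5), NECTIN2 (13.6 to 15.6), MICA (9.80 to 11.6), MICB (8.33 to 11.8), ULBP3 (5.88 to 6.92) and ULBP1 (4.39 to 4.70). In this order ULBP2 overlapped NECTIN2 and MICA overlapped MICB, and the other neighbours did not overlap. With sauchinone, ULBP2 (43.5 to 51.1 FPKM) overlapped PVR (44.4 to 48.6), and both stood above NECTIN2 (19.4 to 21.5) and MICB (18.4 to 18.7). ULBP3 (14.3 to 17.2), MICA (14.6 to 16.3) and ULBP1 (12.8 to 17.3) overlapped one another. By deposited FPKM, ULBP1 and ULBP3 thus stood below MICA in the UVB libraries and at its level in the sauchinone libraries.

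The summed FPKM of the 5 NKG2D ligand genes was 51.4, 50.5 and 43.0 in the UVB libraries and 110, 118 and 105 with sauchinone, a ratio of means of 2.30. ULBP2 made up 33.2% to 34.6% of that sum in the UVB libraries and 40.9% to 43.2% with sauchinone. MICA made up 21.4% to 22.8% and 12.3% to 15.0%. The share of ULBP2 was higher and that of MICA lower in every sauchinone library. The sum of PVR and NECTIN2 was 41.6, 45.6 and 37.1 FPKM in the UVB libraries and 70.1, 64.4 and 66.7 FPKM with sauchinone, a ratio of means of 1.62.

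**Figure D2:**
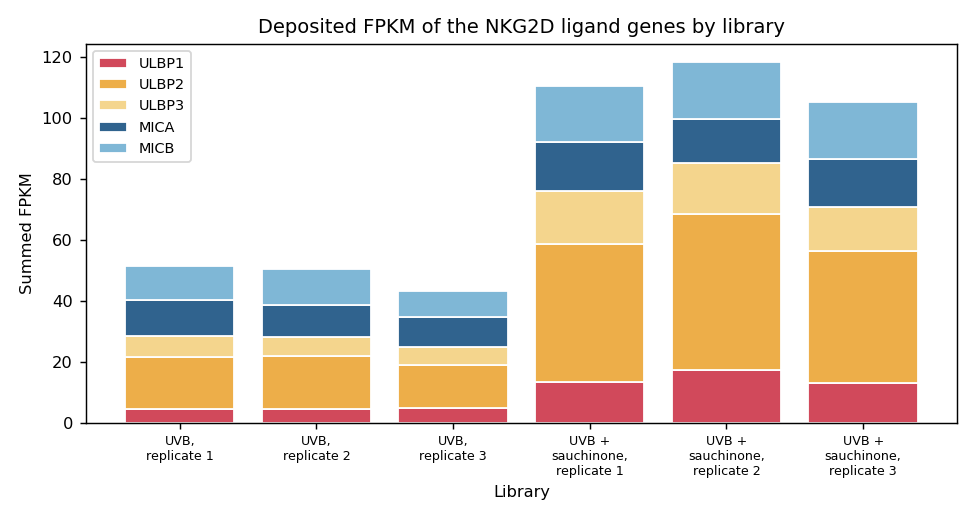
Deposited FPKM (vertical axis, linear from 0) of ULBP1, ULBP2, ULBP3, MICA and MICB stacked for each of the 6 libraries. The stacks reach 43.0 to 51.4 FPKM in the UVB libraries and 105 to 118 FPKM in the sauchinone libraries, and the ULBP2 segment is the largest in each.

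Of the genes with the longest genomic span, the last of 5 equal groups by span, 58.5% were lower with sauchinone, and none of the 7 belongs to them. The spans ran from 7.22 kb (ULBP2) to 43.0 kb (NECTIN2). ULBP1, ULBP2, ULBP3, MICA and MICB fall in the second group (6.93 to 18.9 kb), where the median log2 fold change was 0.17 and 35.5% of genes passed as higher. PVR falls in the next group (median 0.067) and NECTIN2 in the one after it (median −0.069). When a smooth trend with span was removed, the log2 fold changes were 1.44 in ULBP1, 1.26 in ULBP2, 1.10 in ULBP3, 0.34 in MICA, 0.63 in MICB, 0.65 in PVR and 0.42 in NECTIN2. All 7 remained above 0, and NECTIN2, the longest, moved least.

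**Figure D3:**
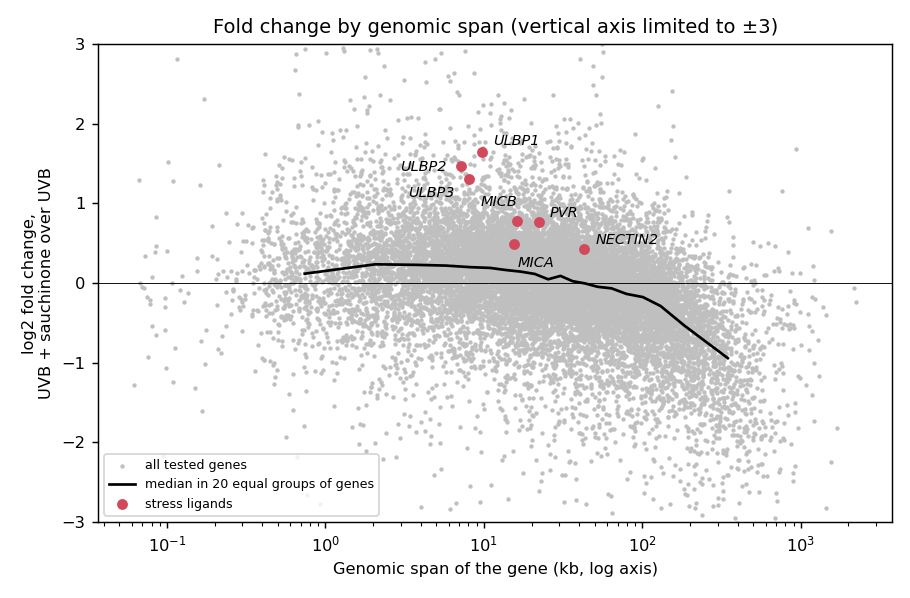
Log2 fold change (vertical axis, limited to 3 in each direction) against genomic span in kb (horizontal log axis) for all tested genes in grey, with the median in 20 equal groups of genes as a line and the 7 stress ligand genes in red. The line falls with span, and the 7 genes, with spans of 7.22 to 43.0 kb, lie above it.

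Over 6 libraries in 2 groups, many genes share a profile, and 981 to 1617 tested genes had a Pearson correlation over 0.95 with each of the 7 in log2 CPM. The closest were ARL6IP1 and ZSCAN25 to ULBP1 (r = 0.9990 and 0.9989), SERTAD1 and DYNC1LI1 to ULBP2, ADPRHL1 and PROSER1 to ULBP3, and SCAND1 and VPS18 to MICA. HARS2 and TPD52L2 were closest to MICB, NANS and TPI1 to PVR, and NSFL1C and STK11 to NECTIN2, with r from 0.9983 to 0.9996 for these 12 genes. These correlations share libraries and the group difference, and they are given as a description.

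The genes around the ligands were taken from 7 lists of 73 genes that do not include the 7 ligands. Of 61 tested, 21 rose and 20 fell in edgeR's quasi-likelihood test (Benjamini-Hochberg adjusted p under 0.05), against 24.7% and 24.9% of all genes tested. Of the other 3 NKG2D ligands, RAET1G rose, from 3.15 ± 0.587 to 5.96 ± 0.781 CPM (n = 3; log2 fold change 0.91 ± 0.19, edgeR adjusted p = 0.00038), with the reserve that it shares sequence with ULBP2. RAET1E was at 0.520 and 0.507 CPM and did not pass (log2 fold change −0.035 ± 0.47), and 92.0% of the windows of its transcript also occur in an annotated neighbour. RAET1L had 0 counts in the UVB libraries and 1, 3 and 2 with sauchinone, at or under the floor of 3 counts, and was too low to test.

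Among the other nectins and nectin-like adhesion molecules, 2 of 4 tested rose and none fell. NECTIN1, a junction protein and herpesvirus receptor, rose from 9.11 ± 0.795 to 22.3 ± 1.09 CPM (n = 3; log2 fold change 1.30 ± 0.12, edgeR adjusted p = 5.9e-09). NECTIN4 had 11 to 15 counts in the UVB libraries and 23 to 47 with sauchinone (log2 fold change 1.24 ± 0.38, edgeR adjusted p = 0.0095), a call lost without UVB + sauchinone replicate 2 (0.89, adjusted p = 0.10, range over alternatives 0.0063 to 0.10). NECTIN3, named after its value was seen, was at 163 ± 10.7 and 158 ± 1.86 CPM and did not pass (log2 fold change −0.038 ± 0.074). With the trend with span removed, NECTIN3, which spans 205 kb, gave 0.57 (edgeR adjusted p = 4.8e-07, range over alternatives 4.8e-07 to 0.94), and this direction therefore turns with that setting.

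Ligands of other activating or adhesion receptors moved both ways, with 2 of 7 tested higher and 2 lower. NCR3LG1, the ligand B7-H6 of the receptor NKp30, rose from 20.9 ± 2.33 to 35.9 ± 1.12 CPM (n = 3; log2 fold change 0.78 ± 0.10, edgeR adjusted p = 1.3e-06). BAG6, a chaperone that also binds NKp30, rose by 0.27 ± 0.077, and by 0.10 with the trend with span removed (edgeR adjusted p = 0.26, range over alternatives 0.0017 to 0.26). NID1, a basement membrane protein that the receptor NKp44 binds, fell by 0.64 ± 0.070. The other that fell, ICAM1, the partner of the integrin LFA-1 on NK cells, was named after its value was seen (log2 fold change −0.35 ± 0.11, edgeR adjusted p = 0.0093). CLEC2A and CD48 had no count in any library.

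Of the ligands of inhibitory receptors, 3 of 11 tested rose and 4 fell. Among MHC class I genes, HLA-E, a ligand of the inhibitory receptor NKG2A and named after its value was seen, rose from 430 ± 27.7 to 541 ± 4.12 CPM (n = 3; log2 fold change 0.33 ± 0.068, edgeR adjusted p = 0.00035). With the trend with span removed HLA-E gave 0.11 and its call was lost (edgeR adjusted p = 0.17, range over alternatives 3e-05 to 0.17). HLA-B, and HLA-C, which was named after its value was seen, did not pass, with log2 fold changes of −0.0019 ± 0.071 and 0.0080 ± 0.086. The values of HLA-B and HLA-C became −0.18 and −0.21 with the trend with span removed, each with an edgeR adjusted p under the threshold (0.033 and 0.034, the lowest over the alternatives, of which the highest were 0.994 and 0.989). CD274, the checkpoint ligand PD-L1, rose from 13.2 ± 0.376 to 26.0 ± 1.75 CPM (n = 3; log2 fold change 0.98 ± 0.11, edgeR adjusted p = 1.1e-07). Its relative PDCD1LG2 fell by 0.64 ± 0.077. HLA-F, named after its value was seen, was among the 4 that fell (log2 fold change −0.39 ± 0.14), a call lost in 7 of 15 alternatives. CDH2, N-cadherin, a ligand of the receptor KLRG1, fell by 0.85 ± 0.073, and by 0.14 with the trend with its span of 245 kb removed (edgeR adjusted p = 0.093, range over alternatives 1.6e-27 to 0.093).

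Shedding enzymes, which can release these ligands from the surface, and their regulators gave 3 higher and 4 lower of 9 tested. ADAM10, a main sheddase of the MIC and ULBP proteins, fell from 245 ± 40.5 to 151 ± 4.89 CPM (n = 3; log2 fold change −0.70 ± 0.091, edgeR adjusted p = 1.3e-06), and its value was −0.24 with the trend with its span of 161 kb removed. ADAM9 fell by 0.38 ± 0.086, and by 0.13 with that trend removed (edgeR adjusted p = 0.17, range over alternatives 4.4e-07 to 0.17). TIMP3, a protease inhibitor, fell by 0.52 ± 0.064. ADAM17, named after its value was seen, was at 46.7 ± 3.45 and 48.8 ± 2.97 CPM and did not pass. Of the genes that attach and remodel the GPI anchor, 2 of 9 tested rose and 2 fell. One of those that rose, PIGT, named after its value was seen, lost its call in 7 of 15 alternatives (log2 fold change 0.23). PIGA, of the first step, rose by 0.58 ± 0.14, PIGK, of the transamidase that attaches the anchor, fell by 0.57 ± 0.090, or by 0.23 with the trend with its span removed, and PIGU, of the same complex, fell by 0.56 ± 0.13, or by 0.19 with the trend with its span removed (edgeR adjusted p = 0.24, range over alternatives 0.00049 to 0.24).

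Among 19 regulators of NKG2D ligand expression, 8 rose and 8 fell. ATM, the kinase that signals DNA breaks and is known to raise NKG2D ligands, fell from 118 ± 23.4 to 57.3 ± 5.03 CPM (n = 3; log2 fold change −1.04 ± 0.11, edgeR adjusted p = 5.6e-08), and its value was −0.64 with the trend with its span of 146 kb removed. XBP1, which drives gene expression when unfolded proteins build up, rose from 98.7 ± 8.10 to 181 ± 11.6 CPM (n = 3; log2 fold change 0.88 ± 0.081, edgeR adjusted p = 7.3e-09). IGF2BP2, an RNA-binding protein, fell by 0.80 ± 0.095, and by 0.27 with the trend with its span of 182 kb removed. Named after their values were seen were ATF4, the stress factor known to drive ULBP1, which rose by 0.49 ± 0.085 (0.27 with the trend with span removed), RBM4, a splicing factor linked to ULBP1, which rose by 0.37 ± 0.097, and HSF1, the heat shock factor, which did not pass (0.26 ± 0.11, edgeR adjusted p = 0.055, range over alternatives 0.0080 to 0.26). The kinases ATR, CHEK1 and CHEK2, also named afterwards, fell by 0.44 ± 0.10, 0.40 ± 0.091 and 0.50 ± 0.13. Genes of this list that are not named include a larger rise than that of ATF4 and a larger fall than that of CHEK2. With the trend with span removed ATR gave −0.11 and its call was lost (edgeR adjusted p = 0.36, range over alternatives 3e-06 to 0.36). Of the 16 calls in this list, 5 were lost in at least 1 alternative.

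**Figure D4:**
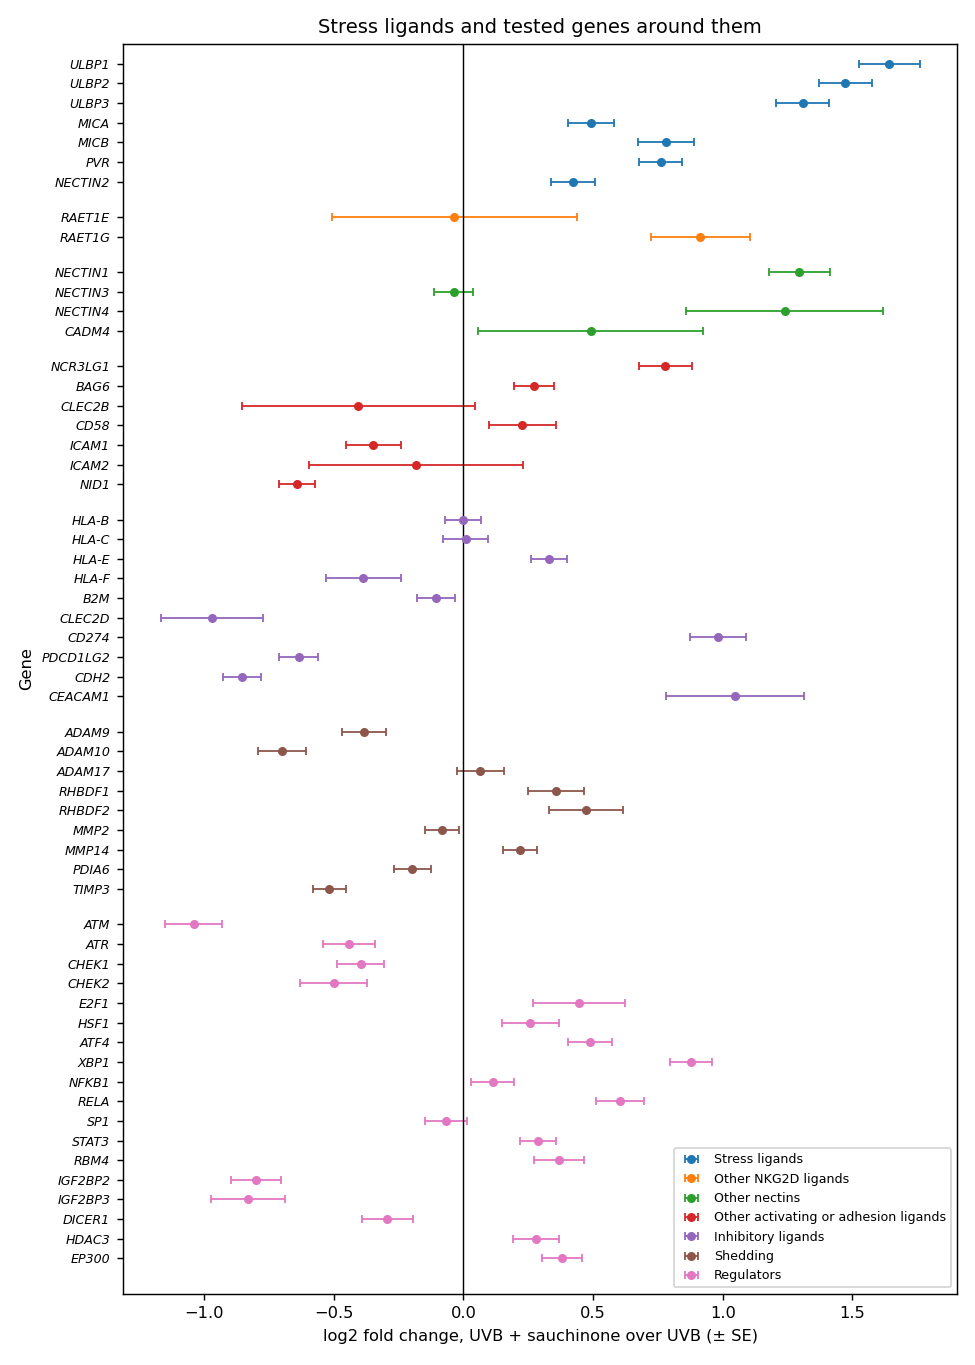
Log2 fold change, UVB + sauchinone over UVB (horizontal axis), with SE as error bar, for the 7 stress ligand genes and tested genes of 6 lists (all but 2), coloured by list. The 7 ligands lie between 0.42 and 1.64, HLA-B and HLA-C lie near 0, and the other lists hold genes on both sides of 0.

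Within 100 kb of the 7 genes, 18 other tested genes gave 5 that rose and 1 that fell, with a median log2 fold change of −0.017. Of all genes tested, 24.7% rose and 24.9% fell. In the ULBP cluster RAET1G and PPP1R14C rose, the latter by 0.82 ± 0.31 (edgeR adjusted p = 0.033), a call lost with UVB replicate 1 or 2 or UVB + sauchinone replicate 1 or 2 left out and with the replicate block (adjusted p up to 0.14, from 0.0072 over the alternatives). Near MICB, NFKBIL1 rose by 0.84 ± 0.14, and HCP5, a long noncoding RNA gene between MICA and MICB, fell by 0.60 ± 0.12. Near NECTIN2, TOMM40 rose by 0.60 ± 0.10 and CLPTM1 by 0.35 ± 0.082. BCL3, CEACAM19 and IGSF23 near PVR did not pass, with log2 fold changes of −0.043, 0.34 and −0.11, and CEACAM19 passed with total-count scaling and without UVB replicate 3 (edgeR adjusted p from 0.031 to 0.20 over the alternatives). The others that did not pass were LRP11 and RAET1E near the ULBP genes, HLA-B, ENSG00000272221, MICB-DT, DDX39B and ATP6V1G2 near the MIC genes, and APOE and BCAM near NECTIN2.

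The summed markers of other cells were low beside those of fibroblasts. Of 14 NK cell markers, 13 were too low to test, KLRC1, NCR1, NKG7 and CD96 had no count, and their summed level was 0.600 to 1.10 FPKM in the UVB libraries and 0.340 to 0.550 with sauchinone. KLRK1, the gene of NKG2D itself, had 1 count in 1 library and 0 in the others. CD226, the gene of DNAM-1, had 25, 23 and 28 counts in the UVB libraries and 7, 3 and 1 with sauchinone, and spans 131 kb. The 7 keratinocyte markers summed to 6.17 to 6.33 and 7.22 to 7.84 FPKM, with KRT1 and KRT5 at 0, the 7 melanocyte markers to 7.82 to 8.82 and 6.17 to 6.28, with DCT at 0, and the 5 endothelial markers to 1.29 to 1.58 and 0.440 to 0.650, with CDH5 and KDR at 0. Most of the keratinocyte sum was KRT10 (4.75 to 5.31 and 5.93 to 6.26 FPKM). Most of the melanocyte sum was MITF (7.04 to 8.27 and 5.74 to 5.79 FPKM). MITF and the endothelial marker TEK fell (edgeR adjusted p = 0.00023 and 1.5e-06), and no marker of these lists rose. MLANA was also called lower, with 22, 33 and 21 counts in the UVB libraries and 12, 10 and 5 with sauchinone. It passed the filter on low counts through the UVB group, so its call is given as a description. The 9 T cell and myeloid markers summed to 1.56 to 1.87 and 2.21 to 2.58, with CD3D, CD3E and TYROBP at 0. The 9 fibroblast markers summed to 2621 to 2838 FPKM in the UVB libraries and 1938 to 1992 with sauchinone. Of these 9, 8 fell, against 24.9% of all genes tested. The part of these marker shifts in the ligand values was not tested.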

How the data were processed

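RNA sequencing of 6 libraries was analysed. The authors deposited raw counts per gene, which were not normalised, and FPKM values per gene. Recomputed from counts, exon length and library total, 100% of the FPKM values came out within 0.006. The build was GRCh38 (submitters' processing notes). The aligner, counter, annotation and use of strand while counting are not stated in the sources used here. Genes with an antisense partner are therefore uncertain. Libraries were strand-specific, and either poly(A) selection or ribosomal RNA removal was possible, per the labels' protocols. That the replicates are separate cultures is not stated, so their spread may be technical.

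Counts were tested with edgeR 4.0.16 in R 4.3.3: filterByExpr (15704 genes), TMM, the quasi-likelihood test without covariates, two-sided, and Benjamini-Hochberg adjustment over all tested genes at a threshold of 0.05. Each SE is the log2 fold change divided by the square root of F, with a median of 0.12. The 7 genes, the lists and the rules were chosen with earlier results of these data known, and no list was given a set test. Named genes were the 7 ligands, the 3 genes of each list with the smallest p among those that passed, lists of at most 3 genes whole, tested genes within 100 kb and the 2 most correlated genes. Others are marked as named after their values were seen, apart from markers, genes with 0 counts and genes named for shared sequence or position. Alternatives were DESeq2 1.42.0, limma-voom (limma 3.58.1), other normalizations and filters, removal of a trend with span, the replicate number as a block, and each library left out. Promoters came from the RefSeq table (all 7 matched), and transcripts from GENCODE release 29, compared with Biopython 1.88. Single values of 2 list genes are not reported here.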

Additional observations from a re-analysis of the deposited data

How the results depend on the processing

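The 7 ligand genes had a log2 fold change above 0 in each of the 15 alternatives. With the trend with genomic span removed, ULBP2 gave 1.26, ULBP3 1.10 and MICA 0.34, shifts larger than the spread between replicates, and the cause was not tested. Leaving out 1 library at a time gave 1.49 to 1.73 in ULBP1, 1.38 to 1.53 in ULBP2, 1.26 to 1.39 in ULBP3, 0.43 to 0.54 in MICA, 0.63 to 0.88 in MICB, 0.67 to 0.85 in PVR and 0.37 to 0.47 in NECTIN2. Over all genes, 3872 were higher and 3914 lower, and every alternative stayed within 1.5 times of both counts. The replicate number as a block gave 3603 and 3677 over all genes, and 1.63 in ULBP1 and 0.79 in MICB. Libraries of equal number had deviations that correlated at 0.0072, −0.078 and −0.031, and no UVB library correlated best with its own number. No pairing by number was seen, but with 3 libraries per group this cannot show whether the cultures were paired.

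Of the 41 list genes that passed, 24 kept their direction and call in every alternative. With the span trend removed, NECTIN3, HLA-C and MMP2, named after their values were seen, reversed, to 0.57, −0.21 and 0.20, 12 called genes lost their call, ligands of inhibitory receptors that fell went from 4 to 7, ligands of other activating receptors that rose from 2 to 1, shedding genes that fell from 4 to 2 and GPI anchor genes that fell from 2 to 1, and the cause was not tested. Of the 73 list genes, 12 were too low to test, and low counts limit RAET1E and NECTIN4 among those tested and named.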
